A study of Mus musculus with 20 samples.

Results

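Ribosome-bound RNA was compared with total RNA in normoxic mouse macrophages, in the 10 of the series' 20 libraries that were made from cells kept in normoxia. The macrophages were grown for 6 days from fetal liver cells in medium conditioned by L cells, and the plates used here stayed at 20% O2 and 5% CO2 while their hypoxic partners spent 18 h at 1% O2. Each lysate was split into an input portion, which gave total RNA, and a portion for translating ribosome affinity purification (TRAP), which gave the RNA on ribosomes carrying the ribosomal protein L10a fused to EGFP. The 5 input and 5 TRAP libraries came from 5 animals and were paired by animal number. Animals WT-280 and WT-281, the controls, had the genotype Csf1r-iCre.HuR+/+. The conditional knockouts, here called knockout-labelled, were KO-84, KO-94 and also KO-179, of genotype Csf1r-iCre.HuRfl/fl. The Csf1r-iCre driver and the EGFP-L10a fusion were therefore shared by all groups. The labels name neither the promoter that drives EGFP-L10a nor the cells that carry it, and they give the age of the embryos as E14.5 in one place and E14.4 in another.

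TRAP recovers cytosolic ribosomes through a tag on the large subunit, so an mRNA is recovered when it sits on a tagged ribosome. A ratio of TRAP to input is used as a relative measure of ribosome association of each transcript. Mitochondria have ribosomes of their own, built from other proteins and enclosed by the mitochondrial membranes, and these do not carry L10a. Because a tagged ribosome is made only in cells that express the fusion, TRAP can also separate the RNA of those cells from that of neighbours in the same lysate.

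The values were TPM, the share of a transcript in its library after correction for length, scaled to sum to 1000000, so a TRAP value is a share and not an amount of RNA per cell. Sequencing depth is unknown, and the precision of each value rests on the 5 animals. Of 52636 genes, 13748 reached at least 1 TPM in at least 2 of the 10 libraries and were tested. Input libraries held 11356 to 12361 genes at 1 TPM or more and TRAP libraries 10243 to 11735, with TRAP below input in each animal. The ferritin heavy chain Fth1 had the highest TPM in all 5 input libraries. Gm23935, a gene without a RefSeq match here, had the highest TPM in the TRAP libraries of KO-84 (110135) and KO-94 (50931). Genes without a RefSeq match made up 18.6% of the TRAP library of KO-84 against 4.69% to 8.36% of the other TRAP libraries.

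Elavl1, the gene targeted in the knockout design, encodes HuR, which binds AU-rich elements of mRNAs (chr8:4284781-4325140 in GRCm38.p6). Its TPM in input were 47.3 (WT-280), 25.9 (WT-281), 40.1 (KO-84), 154 (KO-94) and 43.0 (KO-179). Ribosome-bound RNA of the same animals held 40.4, 2.88, 26, 72.1 and 3.99 TPM. Values of knockout-labelled and control animals thus overlapped in both fractions, and the labels do not say which part of the gene was floxed. Elavl1 was below input in TRAP in each of the 5 animals, with a difference of −1.57 ± 0.439 (SE) in log2(TPM + 1), which did not pass the test (limma adjusted p = 0.12). Rpl10a, which encodes the protein whose tagged form was used for purification, measured 625, 711, 694, 1558 and 554 TPM in input and 582, 600, 1012, 2691 and 702 TPM in TRAP, in that order. The fractions overlapped, with KO-94 highest in both, and the difference was 0.27 ± 0.183 (SE; limma adjusted p = 0.438).

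Few transcripts passed the test between ribosome-bound and total RNA with 5 pairs. On the TPM scale, almost all that passed were lower in TRAP. In limma on log2(TPM + 1), with the animal as a block and Benjamini-Hochberg adjustment over all genes tested, 67 genes passed at an adjusted p under 0.05 (0.487% of those tested). Of these, 60 were lower in TRAP (0.436%) and 7 were higher (0.0509%), each in the same direction in 5 of 5 animals. Without the block, 32 were lower and none of the 1396 genes with an unadjusted p under 0.05 passed as higher. In the paired fit 2793 genes (20.3%) had an unadjusted p under 0.05. Differences on this scale understate those of genes at low TPM.

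The passing genes fell into a few groups. They were 22 mitochondrially encoded genes, 12 genes with clone-like names, the pair of 7SL RNA genes Rn7s1 and Rn7s2, and 31 other named genes, of which 25 were lower and 6 higher. Input and TRAP values did not overlap for 47 of the 67, whereas among all genes 2.57% were non-overlapping and lower and 0.262% non-overlapping and higher. The direction of the weaker differences depended on the scaling. The median of all genes was −0.30 in log2, or −0.30, −0.17, −0.37, −0.36 and −0.11 in the 5 animals. Centring each library on its median moved the median of all genes to 0.07 and gave 193 higher genes (1.4%) against 58 lower ones (0.422%), and quantile normalization moved it to 0.02 and gave 1 higher (0.00727%) against 36 lower.

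**Figure D1:**
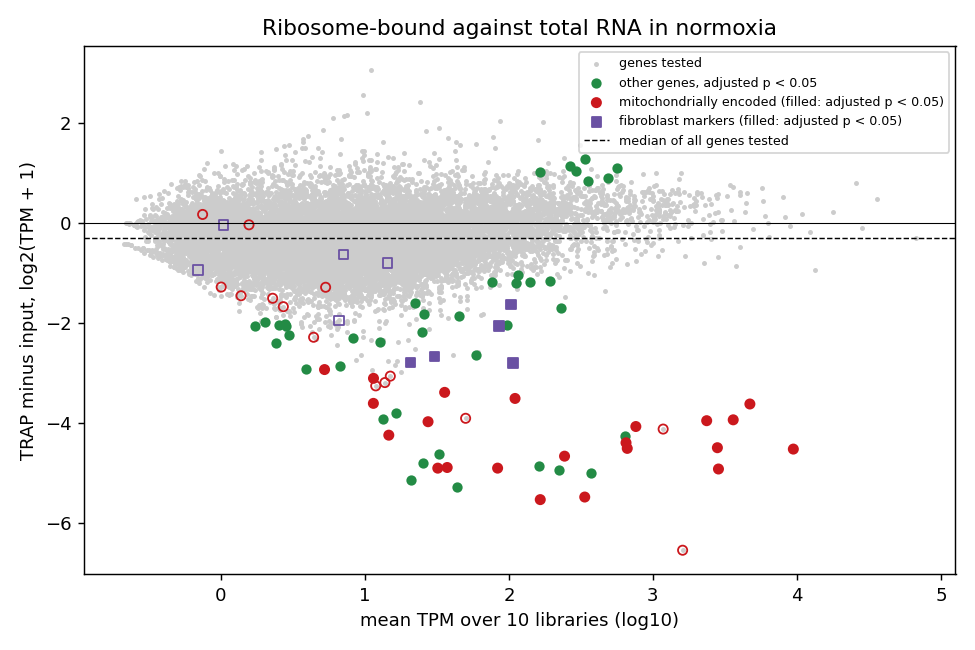
Each point is 1 of 13748 genes, with the mean TPM over the 10 normoxia libraries on a log10 scale (x axis) against the fitted TRAP minus input difference in log2(TPM + 1) (y axis). The mitochondrially encoded genes (red) and fibroblast markers (purple) that passed lie well below the dashed median of −0.30, and the 7 passing genes above 0 (green) all lie between 0.84 and 1.26.

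The 13 protein-coding transcripts of the mitochondrial genome had the lowest median difference of the 32 gene lists (−4.12), and 10 of them were lower in TRAP. These mRNAs encode core subunits of the respiratory chain and ATP synthase and are translated inside the organelle. Together they made up 3.02%, 3.19%, 4.75%, 2.27% and 2.95% of input TPM, in the order WT-280, WT-281, KO-84, KO-94, KO-179 used throughout, and 0.861%, 0.331%, 0.0402%, 0.0671% and 0.298% of TRAP TPM. Every TRAP share was below every input share. The depletion differed widely between animals, from 3.51-fold in WT-280 and 9.63-fold in WT-281 to 9.91-fold in KO-179, 33.9-fold in KO-94 and 118-fold in KO-84. The mean difference was −2.92 percentage points ± 1.05 (SD, n = 5 pairs; exact sign-flip permutation test, two-sided p = 0.063, the smallest that 5 pairs can give, adjusted over 10 gene classes p = 0.156). Without pairing, the exact permutation test gave p = 0.00794, the smallest that 5 against 5 libraries can give.

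All 13 mitochondrial mRNAs had a fitted difference below 0, from −6.54 to −3.61, against 71.7% of all genes below 0. Of the 13, 10 passed the test, against 0.436% of all genes as lower. The cytochrome oxidase subunit mt-Co2 measured 357, 515, 892, 89.6 and 497 TPM in input and 37.9, 17.1, 10.9, 5.65 and 11.7 TPM in TRAP. Its lowest input value, in KO-94, was still more than the highest TRAP value, in WT-280. The difference was −4.67 ± 0.392 (SE; limma adjusted p = 0.00225). Another oxidase subunit, mt-Co3, measured 491, 693, 1333, 113 and 634 TPM in input against 50.7, 27.7, 8.5, 0 and 12.1 TPM in TRAP (−5.48 ± 0.498, SE; limma adjusted p = 0.00233). The fractions did not overlap, and KO-94 was the lowest animal in both.

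The ATP synthase subunit mt-Atp8 measured 37.0, 27.6, 40.3, 5.66 and 33.5 TPM in input, and in TRAP 1.80 and 0.475 TPM in the controls, 0.0192 TPM in KO-179 and 0 in KO-84 and KO-94. Cytochrome b, encoded by mt-Cytb, measured 4037, 4219, 7896, 5437 and 5412 TPM in input and 963, 214, 26.8, 137 and 194 TPM in TRAP, a difference of −4.92 ± 0.648 (SE; limma adjusted p = 0.0118). Both were without overlap between fractions, as was the complex I subunit mt-Nd3 (−4.90 ± 0.570, SE; limma adjusted p = 0.00566, and 0.0557 without KO-179). The call for mt-Cytb was lost without WT-281 (limma adjusted p = 0.0508), KO-94 (0.153) or KO-179 (0.0892), while mt-Co2, mt-Co3 and mt-Atp8 passed with any 1 animal left out. The 3 that did not pass were mt-Nd2 (−6.54 ± 1.42, SE; limma adjusted p = 0.083), mt-Nd4 (−4.12, 0.0854) and mt-Atp6 (−3.91, 0.0565), named after their values were seen. In 1 animal each, KO-179 for mt-Nd4 and KO-94 for mt-Atp6, TRAP was above a low input value.

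**Figure D2:**
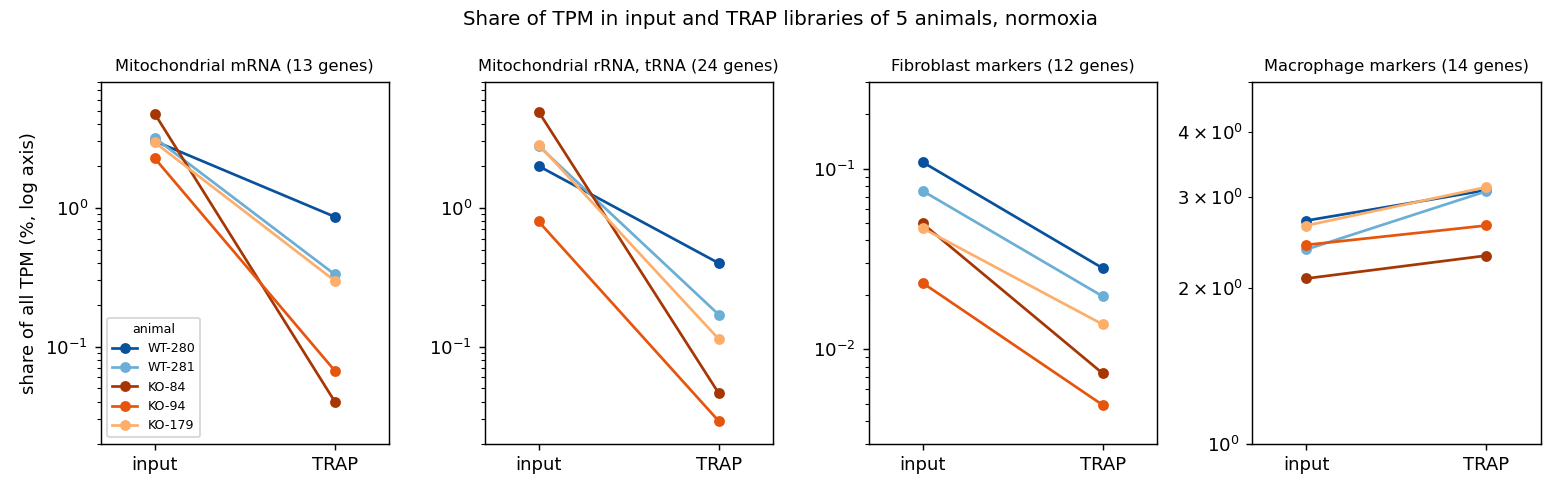
Share of all TPM (y axes, percent on log scales that differ between panels) held by 4 gene groups in the input and TRAP library of each animal, with a line joining the libraries of 1 animal. Mitochondrial mRNA lay between 2.27% and 4.75% in input and between 0.0402% and 0.861% in TRAP, and the summed fibroblast markers were lower in TRAP in all 5 animals. The summed macrophage markers were slightly above input in all 5, although 12 of the 14 genes had a fitted difference below 0.

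The structural RNAs of the mitochondrion followed the same course. Its 24 rRNA and tRNA genes took 2.67% ± 1.5 of input TPM and 0.152% ± 0.149 of TRAP TPM (SD, n = 5), lower in 5 of 5 animals. Of the 24, 12 passed, against 0.436% of all genes as lower. The large rRNA mt-Rnr2 (chromosome MT, positions 1094 to 2675) measured 13299, 17859, 32377, 6240 and 19631 TPM in input and 2760, 1092, 312, 220 and 699 TPM in TRAP. The fractions did not overlap, and the difference was −4.52 ± 0.481 (SE; limma adjusted p = 0.00399, and 0.088 without KO-94). The tRNA genes mt-Tc, mt-Tn, mt-Ty and mt-Ts1 differed by −5.53, −4.90, −4.89 and −4.51 (limma adjusted p from 0.00225 to 0.00531), and of these mt-Ty passed with any 1 animal left out. The call was lost without KO-94 for mt-Tc (0.088), mt-Tn (0.088) and mt-Ts1 (0.0622), and without KO-179 for mt-Tc (0.0537). Because the libraries were poly(A)-enriched, the levels of rRNA and tRNA may also rest on that step, which was not tested.

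Of the 12 passing genes with clone-like names, 11 were lower in TRAP. One of them, Gm10925, is annotated by RefSeq as a pseudogene on chromosome 1 that has mt-Atp6 among its synonyms. It measured 245, 341, 602, 49.2 and 323 TPM in input and 36.0, 8.69, 4.58, 1.84 and 5.96 TPM in TRAP, while mt-Atp6 itself measured 95.2, 125, 176, 0.987 and 90.3 TPM in input and 2.97, 3.36, 3.8, 1.22 and 1.76 TPM in TRAP. How reads that match both were divided was not given in the sources used here, so the level of either gene is uncertain. Gm28437, which has no RefSeq match here, measured 503, 725, 1465, 121 and 800 TPM in input. Those values lie near those of mt-Co3 (491, 693, 1333, 113 and 634 TPM). Whether the other lower clone-like genes share sequence with mitochondrial genes was not tested, so they are not known to be a separate group. The same limit on levels may hold for them and for other mitochondrial genes. Gm10925 and Gm28437 were named after their values were seen.

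The 7SL RNA, the RNA component of the signal recognition particle that docks secretory ribosomes to the endoplasmic reticulum, also had lower values in TRAP. Rn7s2 measured 62.4, 134, 107, 7.69 and 121 TPM in input and 1.11, 0.486, 2.32, 0.0409 and 0 TPM in TRAP. The fractions did not overlap (−5.29 ± 0.536, SE; limma adjusted p = 0.00305, passing with any 1 animal left out). Its near-identical copy Rn7s1 differed by −3.93 ± 0.552 (SE; limma adjusted p = 0.0183), a call lost without WT-280, WT-281 or KO-179 (0.0841, 0.0884 and 0.119), and reads of the pair cannot be assigned with certainty. Of 11 tested genes in the list of small structured RNAs, those were the 2 that passed, against 0.436% of all genes as lower. The list had a median of −1.14. Rn7sk, which sequesters the transcription elongation factor P-TEFb, was at −1.72 (limma adjusted p = 0.0862), and Rpph1, the RNA of ribonuclease P, at −1.25 (0.132). All 4 were below input in 5 of 5 animals, which held for 15.6% of all genes. The libraries were poly(A)-enriched, and how far that step kept small structured RNAs in each fraction was not tested.

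Some transcripts typical of fibroblasts were lower in the ribosome-bound RNA. Of 12 fibroblast markers, Pdgfra and Pdgfrb were under the filter on low values. Of the 10 tested, 5 passed as lower, against 0.436% of all genes, and 5 did not pass, while all 10 had a fitted difference below 0, against 71.7% of all genes. Smooth muscle actin Acta2, a contractile protein of myofibroblasts (chr19:34240336-34255585), measured 399, 216, 106, 74.9 and 124 TPM in input and 64.0, 47.3, 5.95, 9.02 and 23.2 TPM in TRAP. The fractions did not overlap, and WT-280 was the highest in both. The difference was −2.80 ± 0.274 (SE; limma adjusted p = 0.00305).

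Sparc, a matrix-binding glycoprotein (chr11:55394159-55420080), measured 226, 172, 128, 45.2 and 116 TPM in input and 69.7, 28.9, 23.3, 11.8 and 31.9 TPM in TRAP. Tagln, an actin-associated protein of contractile cells (chr9:45929628-45936058), measured 272, 217, 139, 37.6 and 116 TPM in input and 86.5, 78.1, 30.3, 12.6 and 43.2 TPM in TRAP. In both genes the fractions overlapped across animals, because input of KO-94 was low, while TRAP was below input within every animal. The differences were −2.06 ± 0.215 for Sparc (SE; limma adjusted p = 0.00354) and −1.64 ± 0.198 for Tagln (0.00682). Without KO-94 the call for Tagln was lost (0.0622), and without the animal block so were those for Acta2, Sparc and Tagln (0.104, 0.156 and 0.415).

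The type I collagen chains Col1a1 and Col1a2 were the other passing markers, named after their values were seen (−2.80 and −2.68; limma adjusted p = 0.0265 and 0.0324). Further genes of the matrix and its assembly that passed, and that were likewise named after their values were seen, were Igfbp7 (−2.65), Col4a1 (−2.31), the proteoglycan Bgn (−2.18), the protease inhibitor Timp1 (−2.05) and the procollagen chaperone Fkbp10 (−1.99). The 12 markers together made up 0.109%, 0.0752%, 0.0496%, 0.0233% and 0.0468% of input and 0.0281%, 0.0196%, 0.00735%, 0.00491% and 0.0137% of TRAP, a depletion of 3.41- to 6.75-fold that was seen in 5 of 5 animals (exact sign-flip permutation test, p = 0.063; unpaired exact permutation test, p = 0.0159). The animals were closer to each other here than for mitochondrial mRNA. The list's median was −1.79, and −1.42 after median centring. Both fractions of an animal came from 1 lysate and so from the same cells, and the labels do not say whether fibroblasts carried the tagged ribosomes; cells without the tag and mRNA off the ribosomes cannot be told apart. Between animals, whose input shares differed, fewer cells of a type and less RNA per cell cannot be told apart in bulk samples.

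The other 12 named genes that were lower in TRAP, chosen for mention after their values were seen, had mixed roles. The amyloid precursor App measured 211, 312, 335, 223 and 269 TPM in input and 98, 151, 118, 114 and 112 TPM in TRAP. Its fractions did not overlap, and the difference was −1.17 ± 0.165 (SE; limma adjusted p = 0.0183). The clathrin heavy chain Cltc (−1.19), the cholesterol ester hydrolase Nceh1 (−1.04) and the nuclear lamina protein Tmpo (−1.82) averaged 107, 156 and 39.6 TPM in input. The others, with means between 3.41 and 21.3 TPM in input, were Aplp1 (−2.92), Htra1 (−2.41), Hspb1 (−2.38), F2r (−2.25), Parva (−2.07), Wisp1 (−2.06), H2afy2 (−2.05) and Ptgs2 (−2.03), with limma adjusted p from 0.00706 to 0.046. The 1 passing gene with a clone-like name that was higher, Gm22953, has no RefSeq match, and measured 235, 200, 145, 71.2 and 154 TPM in input and 464, 645, 346, 128 and 284 TPM in TRAP.

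**Figure D3:**
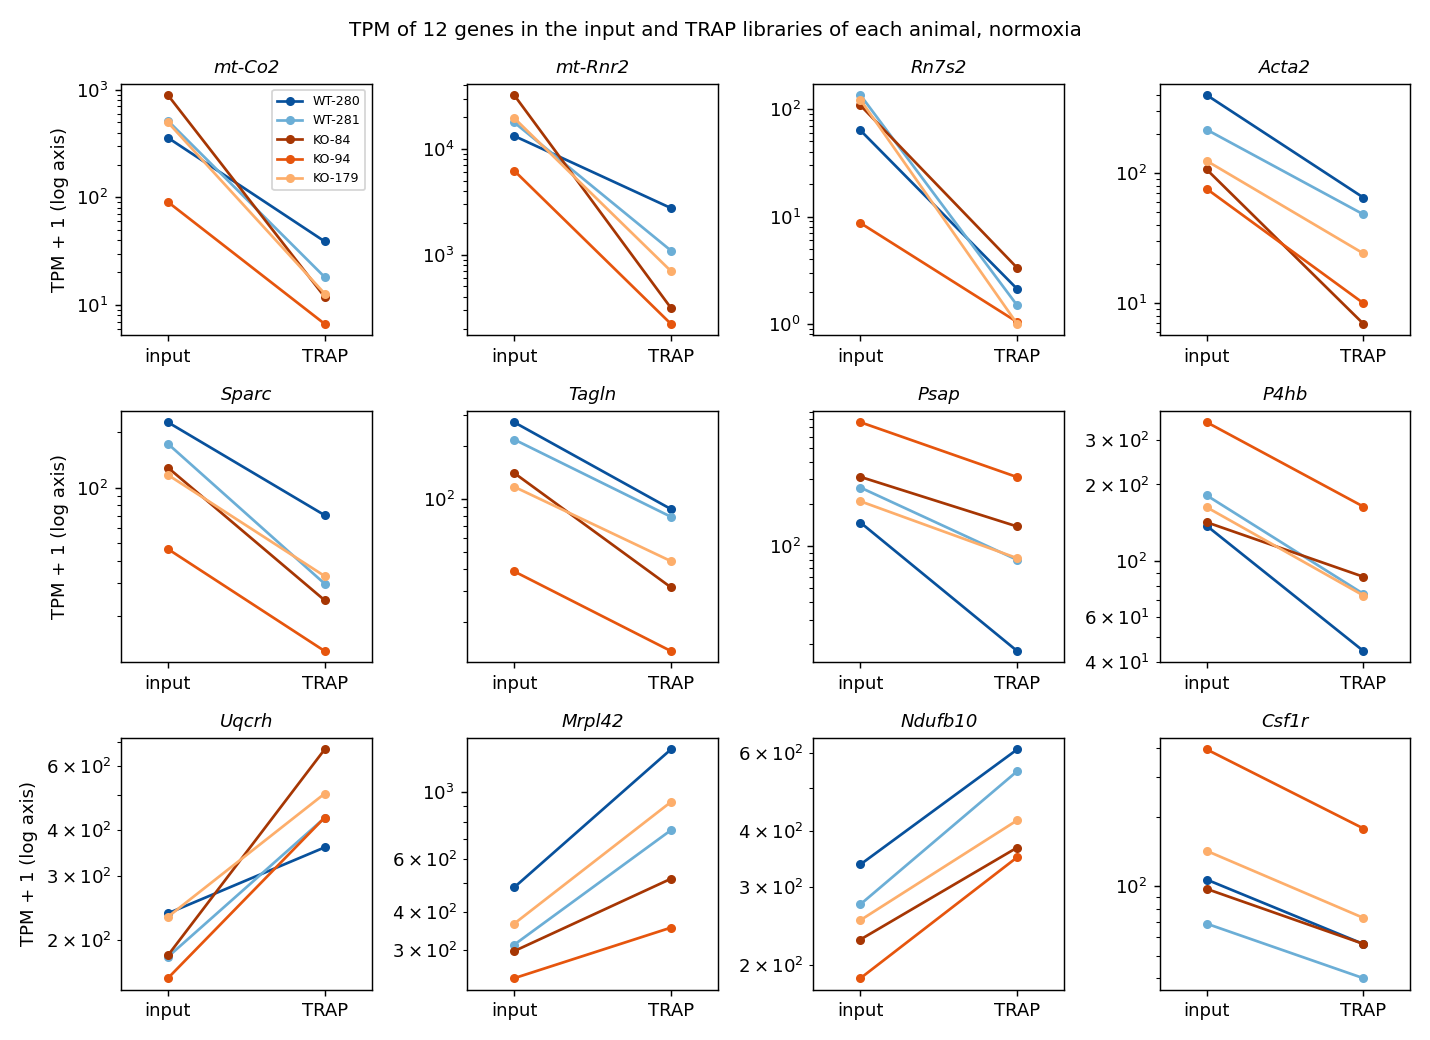
TPM + 1 (y axes, log scales that differ between panels) of 12 genes in the input and TRAP library of each animal, with a line joining the libraries of 1 animal. The lines fall in every animal for the mitochondrial, 7SL, fibroblast, Psap, P4hb and Csf1r panels and rise in every animal for Uqcrh, Mrpl42 and Ndufb10, and only Csf1r among them did not pass.

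Macrophage markers were abundant in both fractions of every animal. Together 14 macrophage genes made up 2.70%, 2.37%, 2.09%, 2.42% and 2.64% of input and 3.09%, 3.08%, 2.31%, 2.64% and 3.14% of TRAP, so the summed share was above input in 5 of 5 animals, although the fractions overlapped (0.406 percentage points ± 0.203, SD; exact sign-flip permutation test, p = 0.063). None of the 14 passed, and their median difference was −0.35. Of the 14, 12 had a fitted difference below 0, against 71.7% of all genes. The other 2 were Tyrobp and Fcer1g, so the higher sum does not describe the rest of the list. Below input in 5 of 5 animals were 6, against 15.6% of all genes. Lysozyme, encoded by Lyz2, measured 9127, 6549.7, 3200, 7836 and 5106 TPM in input and 8352, 6484, 3158, 7084 and 6275 TPM in TRAP. Cd68, a lysosomal glycoprotein of phagocytes, averaged 2516 ± 479 TPM in input and 2504 ± 627 TPM in TRAP (SD, n = 5). Both stayed within the spread between animals, with differences of 0.00 and −0.02 in log2.

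The receptors Csf1r and Adgre1 had values below input in every animal. Csf1r, the receptor for the growth factor that maintains macrophages, measured 106, 67.8, 96.5, 394 and 142 TPM in input and 55.1, 38.8, 55.2, 178 and 71.9 TPM in TRAP (−0.93 ± 0.173, SE; limma adjusted p = 0.061). Adgre1, which encodes F4/80, was at −0.87 ± 0.159 (0.0565). The small adaptor proteins went the other way, with Tyrobp at 4412 ± 744 TPM in input and 7029 ± 505 TPM in TRAP (SD, n = 5), a difference of 0.69 that did not pass (limma adjusted p = 0.0879), and Fcer1g at 0.51 (0.12). Tyrobp and Fcer1g were above input in 5 of 5 animals, which held for 3.18% of all genes.

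Markers of other cells of the fetal liver were scarce in both fractions. Of 10 erythroid markers 1 was tested, and 6 were listed at 0 in all 10 libraries, among them Alas2 and the beta-globin genes. Of 6 lymphocyte markers none reached the filter and 5 were listed at 0 throughout, and of 9 neutrophil and mast cell markers 2 were tested. The hepatocyte list summed to 46.2 to 373 TPM in input and 21.2 to 142 TPM in TRAP, most of it Trf (transferrin, 110 ± 138 and 48.0 ± 51.1 TPM, SD, n = 5), with Alb at 2.15 ± 3.23 and 0.625 ± 1.40 TPM. The endothelial list summed to 9.95 to 21.1 TPM in input and 3.98 to 29.2 TPM in TRAP. No member of these lists passed, and their part in the results was not tested.

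The 6 named genes that were higher in TRAP had mean levels between 109 and 340 TPM in input and had no list in common, except that Uqcrh and Ndufb10 both belong to the respiratory chain. Uqcrh, the hinge subunit of respiratory complex III (chr4:116066965-116075070), measured 235.8, 178.9, 180.6, 156.3 and 230.6 TPM in input and 358, 431, 665, 432 and 503 TPM in TRAP. Every TRAP value was above every input value, and KO-84 rose most. The difference was 1.26 ± 0.198 (SE; limma adjusted p = 0.0324). Ndufb10, a subunit of complex I (chr17:24722060-24724423), measured 336, 273, 227, 186 and 251 TPM in input and 610, 545, 367, 349 and 422 TPM in TRAP, again without overlap, and differed by 0.84 ± 0.147 (0.0486).

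Mrpl42, a protein of the mitochondrial ribosome (chr10:95480805-95501949), measured 483, 311, 297, 241 and 366 TPM in input and 1388, 749, 516, 355 and 929 TPM in TRAP. TRAP of KO-94 lay within the input range, and TRAP was above input within each animal (1.10 ± 0.181, SE; limma adjusted p = 0.0408). Polr2j, a subunit of RNA polymerase II, differed by 1.03 ± 0.178 (0.046), Gng12, a G protein gamma subunit, by 1.02 ± 0.178 (0.0484), and Vamp8, a SNARE protein of endosomes and secretory vesicles, by 0.88 ± 0.152 (0.046). All 6 were above input in 5 of 5 animals and kept a positive difference under every alternative run, but the calls rested on the full set of animals: without WT-280 Uqcrh passed (0.0272), and no other fit with 1 animal left out called any of the 6 (limma adjusted p from 0.086 to 0.204).

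Uqcrh and Ndufb10 belong to a list of 75 nuclear genes for subunits of the respiratory chain, whose mRNAs are translated on cytosolic ribosomes. These 2 of the 75 passed as higher and none as lower, against 0.0509% and 0.436% of all genes. The fitted difference was above 0 in 56 of them, against 28.3% of all genes, and 25 were above input in 5 of 5 animals, against 3.18%. The median was 0.22, at 0.28, 0.31, 0.28, 0.51 and 0.05 in the 5 animals, so it was above the median of all genes in each. With median centring 15 of the 75 passed as higher, against 1.4% of all genes.

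The mRNAs of cytosolic ribosomal proteins, the components of the ribosome itself, had a small positive median with no member past the test without centring. Of 77 genes 70 had a fitted difference above 0, against 28.3% of all genes, and 10 were above input in 5 of 5 animals, against 3.18%. The median was 0.24. With median centring 3 of them, Rpl9, Rpl31 and Rpl35, passed as higher, against 1.4% of all genes. The animals differed in direction, with list medians of −0.28 in WT-280, 0.02 in WT-281, 0.49 in KO-84, 1.03 in KO-94 and −0.17 in KO-179. The summed share was 8.15%, 9.72%, 11.1%, 4.49% and 10.1% of input and 7.17%, 10.6%, 16.5%, 9.45% and 9.18% of TRAP, with KO-94 lowest in input (exact sign-flip permutation test, p = 0.438). Rpl31 (0.87 ± 0.198, SE; limma adjusted p = 0.0854) and Rpl35 (0.62 ± 0.149; 0.0914) had the smallest p in the list. Ribosomal protein genes have many processed pseudogene copies, and how reads shared with them were counted was not given in the sources used here.

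Many ribosomal protein mRNAs begin with a run of pyrimidines, known as a terminal oligopyrimidine motif, through which growth signals control their translation. The first 20 bases of 6 transcripts are shown because they carry or lack such a start, as the RefSeq annotation of GRCm38.p6 places it. A pyrimidine start was counted where base 1 was C and at least 5 bases in a row, read on the transcribed strand, were C or T. Capitals mark that run. Where a gene had more than 1 listed start, the start with the longest such run was used. The positions are chr2:39005112-39005131 (minus strand) for Rpl35, chr4:86857348-86857367 (minus) for Rps6, chr3:90213629-90213648 (minus) for Rps27, chr1:39367851-39367870 (plus) for Rpl31, chr4:116075051-116075070 (minus) for Uqcrh and chr17:24724404-24724423 (minus) for Ndufb10.
Rpl35: CTCTTTCTCTCgaaccaggc
Rps6: CTCTTTTTCgtgacgcctcc
Rps27: CCTTTCCggcggtgacgacc
Rpl31: cccgtgacccggaagttgta
Uqcrh: ggtcgccggatatccgtcga
Ndufb10: gcaggcgtagaggtcccgcg

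A pyrimidine start was found in 14 of the 56 ribosomal protein genes with a listed start (25.0%) and in 2.81% of all 9149 tested protein-coding genes with one. Because the start with the longest run was kept, both shares are the highest that the listed starts allow. The listed start may lie away from the base used in these cells, so the absence of a run says only that these letters are not at the listed position. Ribosomal protein genes with such a start had a median difference of 0.23 and those without one 0.25. Among other protein-coding genes, the 243 with a pyrimidine start had a median of −0.38 and the 8850 without one −0.34. These medians are a description, and no test was run on the start.

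Other parts of the translation machinery lay near the median of all genes. Of 43 translation factors none passed, and the median was −0.20. Eef2, the elongation factor that moves the ribosome along the mRNA, measured 283 ± 55.1 TPM in input and 151 ± 78.1 TPM in TRAP (SD, n = 5; −1.02 ± 0.203, SE; limma adjusted p = 0.0705), and Eif3b, a scaffold subunit of initiation factor eIF3, was at −0.98 ± 0.200 (0.0735). Both were below input in 5 of 5 animals. Atf4, a transcription factor whose mRNA is controlled by upstream reading frames, was at −0.12 ± 0.159 (0.717). Ddit3, its target with a similar upstream control, was at 0.65 ± 0.145 (0.0854) and above input in 5 of 5 animals.

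Long noncoding RNAs known as nuclear were present in TRAP. Of 21 in the list 13 were tested, none passed, and their median was 0.48, at −0.31, 1.34, 0.77, −0.60 and 0.88 in the 5 animals. Their summed level was mostly that of 1 gene, Gm42418, and so does not describe the rest of the list. Whether the signal of Gm42418 comes from a nuclear RNA was not tested. The sum was 3248, 5739, 5648, 1719 and 5162 TPM in input and 1000.3, 3408, 10804, 1833 and 1161 TPM in TRAP. It was below input in 3 animals. Malat1, a nuclear speckle RNA, measured 25.0, 36.5, 31.6, 10.9 and 23.9 TPM in input and 92.3, 404, 85.7, 4.82 and 87.8 TPM in TRAP. It was above input in 4 animals and below it in KO-94, and the difference of 1.5 ± 0.508 (SE) did not pass (limma adjusted p = 0.164). Neat1, the scaffold of paraspeckles, measured 1.73, 2.56, 7.23, 10 and 1.79 TPM in input and 4.42, 72.9, 6.26, 0.662 and 4.56 TPM in TRAP, with 1 high value in WT-281 (0.69 ± 0.815, SE; limma adjusted p = 0.669). Pvt1 was at 1.62 ± 0.366 (0.0854) and above input in 5 of 5 animals. The host transcripts of small nucleolar RNAs, which are spliced and reach the cytoplasm, had a median of 0.22 over 17 genes, with Snhg3 at 0.75 (0.15) and Gas5 at 0.40 (0.202).

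Among mRNAs translated at the endoplasmic reticulum, the lysosomal precursor Psap and the chaperone P4hb were lower in TRAP. Of 39 lysosomal genes 1 passed as lower, against 0.436% of all genes, 38 had a fitted difference below 0 against 71.7%, 23 were below input in 5 of 5 animals against 15.6% of all genes, and the median was −0.64. The list median was −0.69, −0.63, −0.65, −0.61 and −0.33 in the 5 animals and −0.27 after median centring. The passing gene was Psap, the precursor of the saposins that help degrade sphingolipids (chr10:60277628-60302600). It measured 146, 260, 310, 761 and 208 TPM in input and 16.9, 78.9, 137, 309 and 81.1 TPM in TRAP. The fractions overlapped because KO-94 was high in both, and the within-animal difference was −1.71 ± 0.272 (SE; limma adjusted p = 0.0347, and 0.027 to 0.173 with 1 animal left out, passing only without WT-280).

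P4hb, protein disulfide isomerase of the endoplasmic reticulum (chr11:120560298-120573253), was the 1 of 42 chaperone and translocation genes that passed, against 0.436% of all genes as lower. It measured 137, 180, 141, 351 and 162 TPM in input and 43.2, 73.2, 85.6, 163 and 72.1 TPM in TRAP. KO-94 was again highest in both, and the difference was −1.18 ± 0.189 (SE; limma adjusted p = 0.0352), lost with median centring (0.0923) and in all fits with 1 animal left out except that without KO-84 (0.0436). The list had a median of −0.42, with 16 genes below input in 5 of 5 animals against 15.6% of all genes. The medians of this list were 0.02, −0.09, −0.65, −0.60 and −0.31 in the 5 animals, and a genotype difference of list medians was not tested. Slc16a3, a lactate exporter, was the 1 of 34 HIF target and glycolysis genes that passed, against 0.436% of all genes as lower. It measured 34.1 ± 25.8 TPM in input and 10.2 ± 7.52 TPM in TRAP (SD, n = 5). The difference was −1.60 ± 0.276 (SE, limma adjusted p = 0.046). Slc16a3 passed in no fit with 1 animal left out (limma adjusted p from 0.109 to 0.22) nor with median centring (0.0554).

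No member passed in the other lists, which are summarised by their medians. The cell cycle list had the lowest of these, −0.72 over 38 genes, with 36 fitted below 0 against 71.7% of all genes. Of the 38, 8 were below input in 5 of 5 animals, against 15.6% of all genes. Its medians were −0.13, −0.20, −1.17, −1.03 and −0.69 in the 5 animals, and no gene passed the genotype interaction. Top2a, the topoisomerase of mitotic chromosomes, was at −1.71 ± 0.380 (SE; limma adjusted p = 0.0854). Genes of cholesterol synthesis and efflux had a median of −0.59, iron handling −0.48, the actin cytoskeleton −0.48 and large chromatin regulators −0.46. Fth1 itself, the most abundant transcript, measured 74377 ± 18726 TPM in input and 59781 ± 10405 TPM in TRAP (SD, n = 5; −0.30 ± 0.155, SE; limma adjusted p = 0.31), and the light chain Ftl1 was at −0.11 (0.813).

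Other lists stayed near the median of all genes or above it. AU-rich element binding proteins and interferon-stimulated genes each had a median of −0.43, ATF4 and its targets −0.41, antigen presentation −0.36 and splicing regulators −0.23. The proteasome and immediate early lists were both at −0.09, chemokines and cytokines at −0.06, selenoproteins at 0.00 and replication-dependent histones at 0.04. Selenow, a small selenoprotein, measured 777 ± 239 TPM in input and 1337 ± 481 TPM in TRAP (SD, n = 5) and was above input in 5 of 5 animals, a difference of 0.76 ± 0.139 that did not pass (limma adjusted p = 0.0565). Median centring added about 0.37 to these medians, so that the medians of splicing regulators, chemokines and the proteasome were then 0.14, 0.31 and 0.27.

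**Figure D4:**
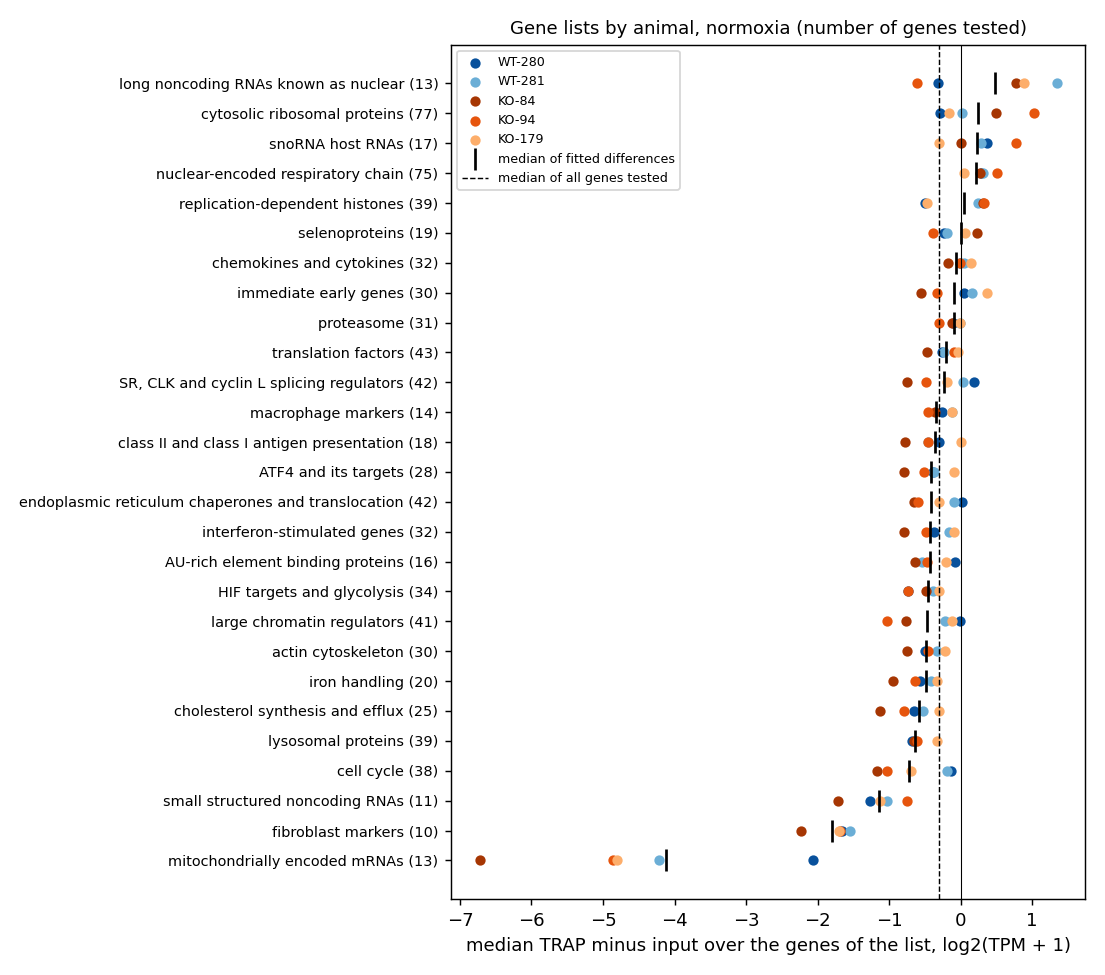
Median TRAP minus input difference in log2(TPM + 1) (x axis) over the tested genes of each list (y axis, number of genes in brackets), as 1 dot per animal and a black bar for the median of fitted differences. Mitochondrial mRNAs (−4.12) and fibroblast markers (−1.79) lie left of the dashed median of all genes in every animal, while the dots of the ribosomal protein list lie on both sides of 0.

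Differences between fractions followed the genomic span of a gene, measured from RefSeq start to end with introns included. Protein-coding genes were divided by span into 5 bins of 2240 genes. The median difference was −0.08 in the shortest bin (median span 4.42 kb), then −0.27, −0.36, −0.45, and −0.50 in the longest (108 kb). The order from shortest to longest was the same among genes with a mean of at least 20 TPM, from 0.14 to −0.39. The shortest bin was above the longest in each animal, for example at −0.21 against −0.36 in WT-280 and 0.00 against −0.82 in KO-84. Shorter genes also had higher levels, with a median of 21.8 TPM in the shortest bin and 6.70 TPM in the longest. Transcript lengths were not used here, so the part of transcript length or level was not tested. The gene lists were set against all genes and not against genes of like span or level. The lists of the nuclear-encoded respiratory chain and of ribosomal proteins had medians of 0.22 and 0.24, above the 0.14 of the shortest bin at 20 TPM or more. Genes of these lists were not removed from the bins, and the part of span or level in their medians was not tested.

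A fraction by genotype interaction asked whether the ratio of TRAP to input differed between genotypes, with 2 control and 3 knockout-labelled animals. No gene passed in limma (smallest adjusted p = 0.824), and 821 genes (5.97%) had an unadjusted p under 0.05. For mitochondrial mRNA, the log2 ratio of the shares was −1.81 and −3.27 in the controls and −6.89, −5.08 and −3.31 in the knockout-labelled animals. Since Elavl1 overlapped between the genotypes, these values compare the labels and not a measured loss of the gene.

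The nearest comparison is the same one in hypoxia, made in 5 other lysates of the same animals. The hypoxia differences were fitted over all 20 libraries. In that fit 47 genes were lower in TRAP in hypoxia (0.342%) and none was higher. For normoxia the same fit gave 251 lower and 62 higher genes, against the 60 and 7 from normoxia libraries alone. The interaction of fraction and oxygen was past the threshold for no gene in limma (smallest adjusted p = 0.993, with 541 genes, 3.94%, at an unadjusted p under 0.05). It did not pair the ratios of 1 animal between normoxia and hypoxia, so lasting differences between animals counted as error. Of the 60 genes lower in normoxia all had a negative difference in hypoxia, 48 were lower in 5 of 5 animals (8.68% of all genes in hypoxia) and 35 passed there too. Acta2 was at −2.80 ± 0.274 in normoxia and −3.05 ± 0.421 in hypoxia (SE), and mt-Co2 at −4.67 ± 0.392 and −4.03 ± 0.460. The 7 genes higher in normoxia all had a positive difference in hypoxia, but none passed and 2 were higher in 5 of 5 animals (2.46% of all genes in hypoxia). Uqcrh was at 1.26 ± 0.198 in normoxia and 0.13 ± 0.224 in hypoxia.

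**Figure D5:**
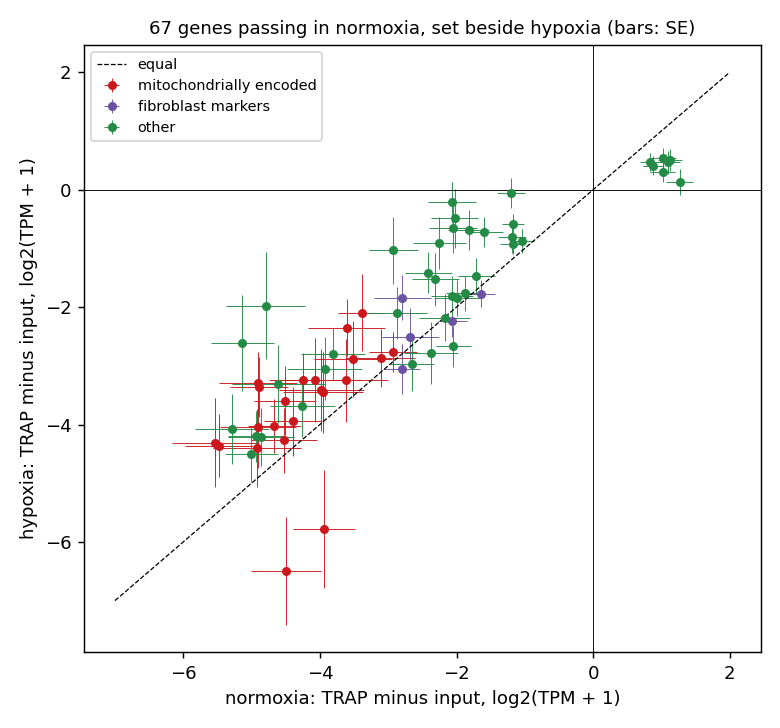
The 67 genes that passed in normoxia, with their fitted TRAP minus input difference in log2(TPM + 1) in normoxia (x axis) and in hypoxia (y axis), and bars for the SE. All 60 lower genes lie below 0 on both axes and the 7 higher genes above 0 on both, with the higher genes under the dashed line of equal values.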

How the data were processed

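Poly(A)-enriched libraries of input and TRAP RNA from 5 animals were read from 2 deposited tables joined by gene ID. The values were taken as TPM made by the authors, because those of each library sum to 1000000; how TPM were computed was not given in the sources used here. Per the submitters' processing notes, HISAT, DESeq2 and GRCm38 were used, without versions or roles. Across both tables, 20 deposited columns of ratios per animal were not used. Of 52636 gene IDs, 52403 matched the gene table and 37906 RefSeq GRCm38.p6. TPM hold no read numbers, so depth is unknown.

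Genes reaching 1 TPM in at least 2 of 10 libraries were fitted on log2(TPM + 1) with limma 3.58.1 in R 4.3.3 (empirical Bayes with a mean-variance trend, fraction plus animal), two-sided, with Benjamini-Hochberg adjustment over 13748 genes and a threshold of 0.05. Interaction terms tested genotype and oxygen, the latter over all 20 libraries. The hypoxia differences were also fitted over all 20 libraries, with each lysate as a block. Shares of gene classes were compared by exact sign-flip permutation. The rest was done in Python 3.11.15 (numpy 2.4.6; pandas 2.3.3; plots with matplotlib 3.10.9). The pipeline was tested on simulated data.

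The numbers pair the libraries because each lysate was divided; across genes, deviations from the group means correlated between the fractions of 1 animal at r = 0.205, 0.247, 0.232, 0.690 and 0.0816 (WT-280, WT-281, KO-84, KO-94, KO-179), against highest values with another animal of 0.0073, 0.157, 0.182, 0.0397 and 0.0971, so that KO-179 did not correlate best with itself. The labels give no batch. In the main limma fit, p-values rest on how the TRAP minus input difference varied among these 5 animals. Gene variances were moderated by empirical Bayes. P-values for oxygen and hypoxia come from fits of all 20 libraries with each lysate as a block.

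The comparison, the 32 gene lists and the rule for named genes were chosen with earlier results of these data known. By that rule, 7 genes (Rpl10a, Elavl1, Fth1, Ftl1, Malat1, Neat1 and Atf4) were always named, then up to 10 passing genes each way with the largest difference (mean of at least 5 TPM, same sign in 5 pairs, no clone-like name), the 3 passing members of a list with the smallest p, and where none passed up to 2 with the smallest p, as values only. Other genes are named where a count of members called for them. Alternatives were the fit without the block, pseudocounts of 0.1 and 5, no filter, a mean of at least 5 TPM, quantile normalization, median centring, rescaling without mitochondrial genes, limma without the trend, each animal left out, all 20 libraries, and each genotype alone.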

Additional observations from a re-analysis of the deposited data

Results flagged for a closer look

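Among 117 sets of 5 animal values examined, 3 held 1 animal far from the other 4 by Dixon's test at its 95% critical value of 0.71; chance flags about 1 in 20 sets. The log2 difference of Psap was −3.038 in WT-280 and between −1.71 and −1.17 in the other animals. The median difference of the lysosomal list was −0.3286 in KO-179 and between −0.69 and −0.61 in the others. The median difference of the fibroblast list was −2.233 in KO-84 and between −1.70 and −1.55 in the others.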

How the results depend on the processing

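The 60 lower and 7 higher genes depended on the processing. Lower and higher genes numbered 32 and 0 without the replicate block, 32 and 0 with a pseudocount of 0.1 (2697 at an unadjusted p under 0.05), 36 and 1 with quantile normalization, 38 and 0 in limma without the trend (2669), 26 and 0 after rescaling without mitochondrially encoded genes, which are then not tested (3091), and 251 and 62 with all 20 libraries. A mean of at least 5 TPM gave 82 and 23, median centring 58 and 193, and a pseudocount of 5 gave 64 and 9. Without the filter, limma called 0 and 0 of 20584 genes, with 3002 at an unadjusted p under 0.05. The knockout-labelled animals alone gave 9 and 0 (1879), and the 2 controls alone 0 and 0 (1357). With 1 animal left out the counts ranged from 18 to 38 lower and from 0 to 1 higher; the lower genes numbered 38, 27, 33, 18 and 21 without WT-280, WT-281, KO-84, KO-94 and KO-179. Apart from construction, the cause was not tested. Without replicate 94, 1 gene passed the genotype interaction.

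Of the 24 named genes that passed, 7 passed with each animal left out and 11 without the replicate block, and none changed direction under any alternative run. Among shares of TPM, dropping the pairing took mitochondrial mRNA (−2.92 points, p = 0.00794), mitochondrial rRNA and tRNA (−2.52, 0.00794) and fibroblast markers (−0.0460, 0.0159) past 0.05 in the exact permutation test. The unpaired test ignores the shared lysate and has more possible permutations, so its smaller p is not stronger evidence. With 1 animal left out, small noncoding RNA ranged from −0.0636 (without KO-94) to 0.0872 points, and unmatched genes from −0.700 (without KO-84) to 2.36 points; as a log2 ratio small noncoding RNA was −0.34. Of named genes that did not pass, the log2 difference changed sign for Fth1, Ftl1, Atf4 and S100a8 with median centring (0.070, 0.26, 0.25 and 0.30), S100a8 with a pseudocount of 0.1 (0.047) and quantile normalization (0.13), Ftl1, Rpl10a, Kdr, Hba-a1 and S100a8 in controls alone (0.17, −0.17, 0.078, 0.00 and 0.22), and Neat1 in knockout-labelled animals alone (−0.64). With 1 animal left out, Ftl1 ranged from −0.25 to 0.10 (without KO-94), Neat1 from −0.23 (without WT-281) to 1.54, Hba-a1 from −0.61 (without KO-179) to 0.65, and S100a8 from −0.26 to 0.26 (without KO-179). Depth is unknown, so values near 0 TPM carry no counting limit.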

Other observations

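Further genes of the lists without a passing member are given as values, as mean TPM with SD over 5 animals and log2 differences with the limma adjusted p. Moesin (Msn), a linker of actin to the membrane, measured 195 ± 91.2 TPM in input and 103 ± 43.9 TPM in TRAP (−0.89, adjusted p = 0.0545), and the actin-severing protein gelsolin (Gsn) 168 ± 162 and 78.3 ± 66.7 TPM (−0.98, 0.0614). The amino acid transporter Slc7a5 measured 18.9 ± 4.48 and 6.86 ± 3.14 TPM (−1.41, 0.0891), the transferrin receptor Tfrc 19.8 ± 8.25 and 9.33 ± 4.95 TPM (−1.07, 0.11), and the sterol regulator Srebf2 13.1 ± 9.04 and 5.44 ± 4.98 TPM (−1.28, 0.119). Aurkb, a mitotic kinase, was at −1.47 (0.102), and the chromatin remodellers Atrx and Smarca5 were at −1.40 (0.111) and −1.0 (0.1). These 8 genes, each among the 2 with the smallest p in its list, were below input in 5 of 5 animals, as were 15.6% of all genes. A pair of inflammatory transcripts lay on opposite sides. The chemokine Ccl4 measured 1482 ± 790 TPM in input and 2597 ± 1745 TPM in TRAP, above input in 4 of 5 animals (0.61, 0.167), and the cytokine Il1a 4.36 ± 3.8 and 0.340 ± 0.639 TPM, below input in 4 animals and above it in none (−1.71, 0.101). The histone Hist1h2bc was above input in 5 of 5 animals (135 ± 35.6 and 196 ± 41.0 TPM; 0.55, 0.137).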
